A study of Mus musculus with 10 samples.

Results

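Genes of the Nogo and repulsive guidance molecule (RGM) systems, which restrain axon growth, were followed in the mouse hippocampus after an axonal lesion with or without myelin-specific T cells. The set was given as 10 genes: the ligands Rtn4, Omg, Rgma and Rgmb, the receptors Rtn4r, Rtn4rl1, Lingo1 and Neo1, and the intracellular relay Rhoa and Rock2. Every probe set of the deposited table whose only gene symbol was one of these was taken, which gave 26 of the 45037 probe sets other than controls and 9 of the 18193 named genes. Rock2 was not analysed here. Rgmb had 6 probe sets, Rtn4 and Neo1 had 5 each, Rhoa had 3, Rtn4rl1 and Lingo1 had 2 each, and Rgma, Rtn4r and Omg had 1 each.

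The 10 arrays each held RNA of the whole hippocampus of 1 female SJL/J mouse, an inbred strain, taken 2 days after the lesion, and the mice had been obtained at 8 to 10 weeks of age. The AxL group (n = 5) had the axonal lesion alone. The TPlp+AxL group (n = 5) first received, by adoptive transfer, T cells specific for proteolipid protein (Plp), a major protein of myelin, and then the same lesion. Both groups were lesioned, and the extent of the lesion in each mouse was not analysed here. Unlesioned mice and mice given other T cells were not analysed here. In whole tissue, fewer cells of a type and less RNA per cell cannot be told apart.

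Nogo (from Rtn4) and oligodendrocyte myelin glycoprotein (from Omg) are inhibitors of axon growth found in myelin and on neurons. They bind the Nogo receptor (Rtn4r), which is anchored to the membrane by a lipid and signals through partners such as Lingo1. RGMa and RGMb bind neogenin (Neo1) and also act as co-receptors for bone morphogenetic proteins (BMPs). Both receptor systems activate the small GTPase RhoA and its kinases, which contract the actin cytoskeleton and collapse growth cones. Cutting the fibres that enter the hippocampus is a standard way to study how these molecules behave after axon damage.

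RefSeq upstream sequences (assembly GRCm38.p6) were matched by symbol for 7 of the 10 genes. Those shown belong to Rtn4r, the gene with the smallest p-value of the set, to Lingo1, the gene with the largest change in mean, and to Rtn4, whose probe sets differed in sign and which has several listed start sites. Each is the 250 bases before a start site, 5′ to 3′ on the gene's strand. Capitals mark GC boxes, searched as GGGCGG on both strands with overlapping matches allowed, and the interferon-gamma type motif TTCNNNGAA, of which these 4 windows held none.
Rtn4r, chr16:18127392-18127641, plus strand: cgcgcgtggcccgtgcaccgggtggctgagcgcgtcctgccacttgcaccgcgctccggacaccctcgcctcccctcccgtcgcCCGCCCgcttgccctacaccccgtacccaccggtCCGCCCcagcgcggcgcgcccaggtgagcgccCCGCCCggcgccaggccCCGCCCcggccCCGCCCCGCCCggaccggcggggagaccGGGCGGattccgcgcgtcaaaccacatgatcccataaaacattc
Lingo1, start site 1, chr9:56796311-56796560, minus strand: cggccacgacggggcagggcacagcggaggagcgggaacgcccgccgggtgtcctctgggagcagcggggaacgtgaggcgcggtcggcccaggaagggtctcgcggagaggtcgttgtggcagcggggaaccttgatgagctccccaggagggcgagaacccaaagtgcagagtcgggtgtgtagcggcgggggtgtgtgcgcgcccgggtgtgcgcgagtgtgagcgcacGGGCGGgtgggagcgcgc
Rtn4, start site 1, chr11:29692648-29692897, plus strand: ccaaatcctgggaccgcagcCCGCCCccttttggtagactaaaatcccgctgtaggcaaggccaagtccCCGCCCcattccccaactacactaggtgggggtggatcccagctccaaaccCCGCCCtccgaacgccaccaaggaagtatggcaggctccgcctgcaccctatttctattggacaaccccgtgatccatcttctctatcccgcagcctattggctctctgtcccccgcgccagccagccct
Rtn4, start site 3, chr11:29718313-29718562, plus strand: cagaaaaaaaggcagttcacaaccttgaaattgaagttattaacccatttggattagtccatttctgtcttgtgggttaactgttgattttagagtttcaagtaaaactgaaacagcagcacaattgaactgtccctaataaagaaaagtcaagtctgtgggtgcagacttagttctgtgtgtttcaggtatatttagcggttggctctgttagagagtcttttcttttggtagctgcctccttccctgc
The Rtn4r window held 7 GC boxes and 77.2% G and C, and the first Lingo1 window 1 box and 72.8%. The first Rtn4 window held 3 boxes and 61.2%, whereas the third, 25665 bases downstream within the gene, held 0 boxes and 39.2%. A GC box was found in 10 of the 13 windows of the set and in 32.7% of all 32851 windows of the same length. TTCNNNGAA was found in 1 of the 13, the second Lingo1 window, and in 7.02% of all. A match is a run of letters and does not show that a factor binds.

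The question put to the arrays was whether transcripts of this inhibitory system differ in lesioned hippocampi when myelin-specific T cells have been transferred. None of the 26 probe sets passed the threshold of an adjusted p under 0.05 (limma, Benjamini-Hochberg across the 45037 tested), while 0.835% of all probe sets passed. At an unadjusted p under 0.05 there were 8 of 26, against 14.3% of all, with 4 higher (6.54% of all) and 4 lower (7.79% of all). At an adjusted p under 0.10 there was 1 of 26, Rtn4r, against 1.68% of all. The changes, given as the mean log2 value of TPlp+AxL minus that of AxL, ran from -0.43 (Lingo1) to 0.32 (a Neo1 probe set), and 0 of 26 reached 2-fold. The median change was -0.042 over the 26 and -0.0034 over all probe sets. Of the 26 changes 16 were negative and 10 positive. When each gene was read by its brightest probe set, 8 of 9 changes were negative, and 7 of 9 were after quantile or cyclic loess normalization, with Rhoa turning positive. Over the brightest probe sets of all genes the median change was also negative, at -0.028, and the share of negative changes was not analysed here. The 9 brightest probe sets had mean levels from 8.33 to 13.43. In the ranges of level that cover these, the median change of all probe sets ran from -0.0046 to -0.15.

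**Figure D1:**
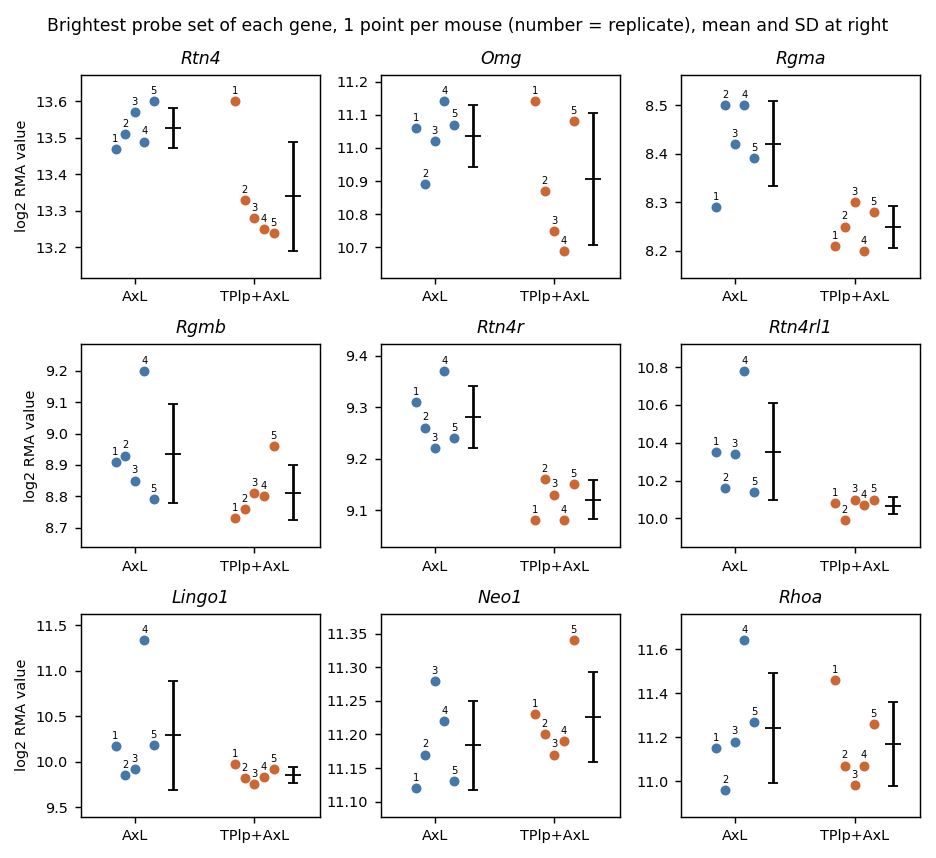
Log2 RMA value (vertical axis, its own range in each panel) of the brightest probe set of 9 genes in the 5 AxL and 5 TPlp+AxL mice, with 1 point per mouse, its replicate number above it and the group mean and SD at the right. The groups do not overlap for Rtn4r and Rtn4rl1, and AxL 4 lies far above the other mice for Lingo1 at 11.33.

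The groups did not overlap in 2 of the 26 probe sets, those of Rtn4r and the brightest of Rtn4rl1, both lower in TPlp+AxL, while they did not overlap in 3.59% of all probe sets and lay apart with TPlp+AxL lower in 1.64%. A difference of this kind between 5 and 5 arrays has an exact two-sided permutation p of 0.00794, the smallest that this design allows. That test was run on the 9 brightest probe sets without adjustment. For the other 7 genes its p was 0.0159 (Rgma), 0.0397 (Rtn4), 0.0635 (Lingo1), 0.167 (Rgmb), 0.238 (Omg), 0.365 (Neo1) and 0.643 (Rhoa).

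Among the ligands, the brightest Rtn4 probe set (1452649_at) read 13.47, 13.51, 13.57, 13.49 and 13.60 in AxL 1 to 5. In TPlp+AxL 1 to 5 it read 13.60, 13.33, 13.28, 13.25 and 13.24. Thus 4 of the 5 TPlp+AxL arrays lay below every AxL array, and the remaining one, TPlp+AxL 1, lay as high as the highest AxL array. The change was -0.19 (SE 0.07, 95% interval -0.33 to -0.04, limma adjusted p = 0.241, exact permutation p = 0.0397). Without TPlp+AxL 1 it was -0.25 with a limma adjusted p of 0.0262, a setting in which 0.722% of all probe sets passed. No Rtn4 probe set passed in any other setting. At mean levels over 13 the 364 probe sets of the table had a median change of -0.15. After cyclic loess normalization, which brought that median to -0.0086, the Rtn4 change was -0.04 (limma adjusted p = 0.726).

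The other Rtn4 probe sets did not all share that sign. The changes of 1437224_at (0.13), 1435284_at (0.10) and 1439650_at (0.14) were positive, with 95% intervals of -0.06 to 0.31, -0.11 to 0.31 and 0.01 to 0.27. The fifth, 1421116_a_at, had the widest spread of them and a change of -0.10 (95% interval -0.62 to 0.43). It read 11.19, 10.63, 10.97, 11.55 and 11.51 in AxL 1 to 5 and 11.77, 11.10, 10.64, 10.55 and 11.31 in TPlp+AxL 1 to 5. Each group held both high and low arrays, so the spread within the groups was several times the difference between them. Rtn4 gives rise to the Nogo-A, Nogo-B and Nogo-C transcripts, and which of them each probe set reads was not analysed here.

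Omg, an inhibitory glycoprotein with leucine-rich repeats, read 11.06, 10.89, 11.02, 11.14 and 11.07 in AxL 1 to 5. It read 11.14, 10.87, 10.75, 10.69 and 11.08 in TPlp+AxL 1 to 5. The groups overlapped, with 3 of 5 TPlp+AxL arrays below every AxL array. The change was -0.13 (95% interval -0.32 to 0.06, limma adjusted p = 0.510), near the median of -0.10 at levels of 10 to 11. Oligodendrocyte markers lay in the same direction as Omg, with 10 of 10 measured genes negative, 0 past the threshold in limma, 6 lower at an unadjusted p under 0.05 (12.1% of all genes were) and a median of -0.21. After cyclic loess normalization 1 of 10 was lower at that p (6.99% of all genes), with 10 of 10 negative and a median of -0.13. Their mean log2 value was 11.18 to 11.59 in AxL and 11.07 to 11.34 in TPlp+AxL. Neuron markers had a median of -0.19, with all 11 genes negative, of which 0 passed in limma and 7 had an unadjusted p under 0.05. With cyclic loess 7 of 11 were negative and 3 lower at that p, with a median of -0.05. As deposited, their mean log2 value was 12.37 to 12.47 in AxL and 12.11 to 12.32 in TPlp+AxL. The part of either cell type in the Omg and Rtn4 values was not tested.

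Rgma, the ligand of neogenin best known for repelling axons, read 8.29, 8.50, 8.42, 8.50 and 8.39 in AxL 1 to 5. The 5 TPlp+AxL values of Rgma were 8.21, 8.25, 8.30, 8.20 and 8.28. Of these, 4 lay below every AxL array, and TPlp+AxL 3 lay just above AxL 1. The change was -0.18 (SE 0.05, 95% interval -0.28 to -0.08, limma adjusted p = 0.122, exact permutation p = 0.0159), a level 11.5% lower. Probe sets at levels of 8 to 9 had a median change of -0.0046, and cyclic loess normalization left the Rgma change at -0.18 (limma adjusted p = 0.136). Its adjusted p ran from 0.0579 without AxL 1 to 0.305 without TPlp+AxL 4 when 1 array was left out.

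Rgmb, also called Dragon, was read by 6 probe sets with changes from -0.12 to 0.10, of which 4 were negative. The brightest, 1433586_at, read 8.91, 8.93, 8.85, 9.20 and 8.79 in AxL 1 to 5. In TPlp+AxL 1 to 5 it read 8.73, 8.76, 8.81, 8.80 and 8.96. The groups overlapped, and the change was -0.12 (95% interval -0.28 to 0.04, limma adjusted p = 0.456). Without AxL 4, the highest array, it was -0.06 (adjusted p = 0.661). The probe set 1459366_at leaned the other way, with 4 of 5 TPlp+AxL arrays above every AxL array and a change of 0.10 (95% interval 0.01 to 0.18, limma adjusted p = 0.282). Over the 7 probe sets of Rgma and Rgmb the 95% intervals stayed between -0.28 and 0.23.

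Among the receptors, Rtn4r showed the smallest p-value of the set. It read 9.31, 9.26, 9.22, 9.37 and 9.24 in AxL 1 to 5, and 9.08, 9.16, 9.13, 9.08 and 9.15 in TPlp+AxL 1 to 5. Every TPlp+AxL array was lower than every AxL array. The AxL mean was 9.28 ± 0.06 (SD, n = 5), and that of TPlp+AxL was 9.12 ± 0.04 (SD, n = 5). The change was -0.16 (SE 0.04, 95% interval -0.24 to -0.08, limma adjusted p = 0.0961, exact permutation p = 0.00794), a level 10.5% lower. Rtn4r did not pass with the deposited values. It passed after each array's median was subtracted (-0.19, limma adjusted p = 0.0404), where 1.06% of all probe sets passed. In that setting 210 of all probe sets were lower past the threshold, against 85 with the deposited values. Rtn4r also passed with array weights (-0.16, limma adjusted p = 0.0492), where 1.67% of all did. It was -0.12 after quantile (adjusted p = 0.282) and -0.11 after cyclic loess normalization (adjusted p = 0.288). Its limma adjusted p was 0.216 with a trended and robust variance and 0.234 with a replicate block. It ran from 0.097 to 0.256 when 1 array was left out.

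Rtn4rl1 encodes a relative of the Nogo receptor, NgR3, that binds chondroitin sulfate proteoglycans. Its brightest probe set, 1455664_at, read 10.35, 10.16, 10.34, 10.78 and 10.14 in AxL 1 to 5 and 10.08, 9.99, 10.10, 10.07 and 10.10 in TPlp+AxL 1 to 5. The TPlp+AxL arrays were tightly grouped just under the lowest AxL array. The change was -0.29 (SE 0.10, 95% interval -0.51 to -0.06, limma adjusted p = 0.248, exact permutation p = 0.00794). It was -0.18 without AxL 4 (adjusted p = 0.180). The second probe set, 1436868_at, had -0.25 (limma adjusted p = 0.403), and -0.11 without AxL 4, with 3 of 5 TPlp+AxL arrays below every AxL array.

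Lingo1, the signalling partner of the Nogo receptor, had the largest change in mean, and it rested on 1 array. The brighter probe set, 1428118_at, read 10.17, 9.85, 9.92, 11.33 and 10.18 in AxL 1 to 5. In TPlp+AxL 1 to 5 the Lingo1 values were 9.97, 9.82, 9.75, 9.83 and 9.92. AxL 4 was alone at the top, and the other 4 AxL arrays overlapped with TPlp+AxL. The difference in means was -0.43 (95% interval -0.94 to 0.07, limma adjusted p = 0.411). Without AxL 4 it was -0.17 (adjusted p = 0.356). The dimmer probe set, 1437386_at, gave -0.26 (adjusted p = 0.556), and -0.03 without AxL 4 (adjusted p = 0.819), with 10.22 in AxL 4 against 9.01 to 9.13 in the other AxL arrays.

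**Figure D2:**
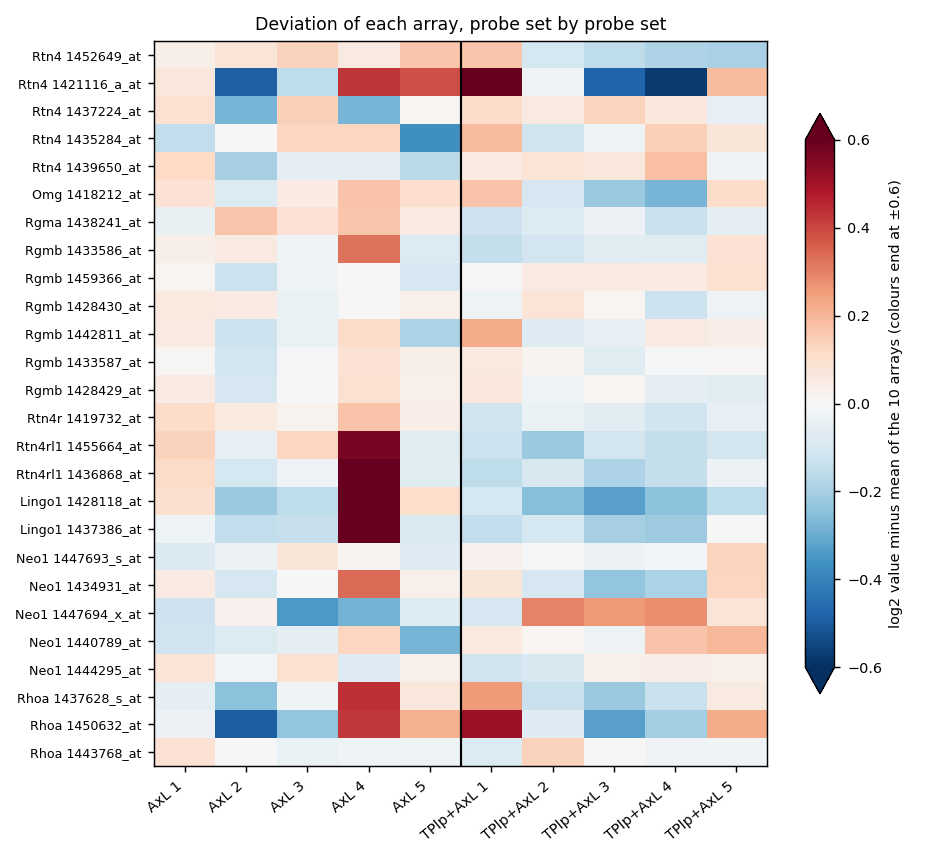
Log2 value of each array minus the mean of the 10 arrays (colour, ending at 0.6 in either direction) for the 26 probe sets in rows and the 10 mice in columns, with a line between the groups. AxL 4 stands out in the Lingo1 and Rtn4rl1 rows, and the Rtn4 probe set 1421116_a_at and the Rhoa probe set 1450632_at vary widely within both groups.

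AxL 4 was the highest of the 5 AxL arrays in 16 of the 26 probe sets, and in 29.9% of all probe sets. Over all probe sets its mean correlation with the other arrays was 0.990, the lowest of the 10, against 0.993 to 0.995 for the rest. Its markers of neurons (12.47), astrocytes (12.50), microglia (10.48), oligodendrocyte precursors (9.91) and endothelium (8.61) were the highest of the 10 arrays. Its oligodendrocyte markers (11.36) lay below those of AxL 3 (11.59). Its choroid plexus markers (8.44) and T cell markers (7.52) were the lowest of the 10. With AxL 4 left out, 0 of 26 probe sets passed in limma and the median change of the 26 was -0.008.

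Neogenin (Neo1), the receptor of the RGM proteins, had changes of both signs. The brightest probe set, 1447693_s_at, read 11.12, 11.17, 11.28, 11.22 and 11.13 in AxL 1 to 5, and 11.23, 11.20, 11.17, 11.19 and 11.34 in TPlp+AxL 1 to 5. The groups overlapped throughout, and the change was 0.04 (95% interval -0.06 to 0.14, limma adjusted p = 0.694). After cyclic loess normalization it was 0.14 (adjusted p = 0.188). The endings of 1447693_s_at and of 1447694_x_at denote shared sequence. The probe set 1447694_x_at read 8.84, 8.99, 8.62, 8.68 and 8.88 in AxL 1 to 5 and 8.86, 9.26, 9.22, 9.24 and 9.04 in TPlp+AxL 1 to 5. Here 4 of 5 TPlp+AxL arrays lay above every AxL array, with a change of 0.32 (95% interval 0.13 to 0.52, limma adjusted p = 0.145). This probe set passed with array weights (0.35, limma adjusted p = 0.0494), where 1.67% of all probe sets did. The remaining Neo1 probe sets, without such an ending, had changes of -0.13 (1434931_at, the brightest of them), 0.16 and -0.05. Over the 5 probe sets 3 were positive and 2 negative.

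Rhoa, the GTPase on which both receptor systems converge, varied more between mice than between groups. Its brightest probe set, 1437628_s_at, read 11.15, 10.96, 11.18, 11.64 and 11.27 in AxL 1 to 5 and 11.46, 11.07, 10.98, 11.07 and 11.26 in TPlp+AxL 1 to 5. The ending of this probe set also denotes shared sequence. The groups overlapped, with AxL 4 and TPlp+AxL 1 the highest arrays. Their means differed by -0.07 (95% interval -0.34 to 0.19, limma adjusted p = 0.808) and by 0.03 after quantile or cyclic loess normalization. The second probe set, 1450632_at, had 0.05 (95% interval -0.36 to 0.46). The dimmest, 1443768_at, stayed between 6.32 and 6.54 in all 10 arrays, with a change of 0.0035. The 95% intervals of the brighter pair together span -22.1% to 37.8% of the AxL level.

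**Figure D3:**
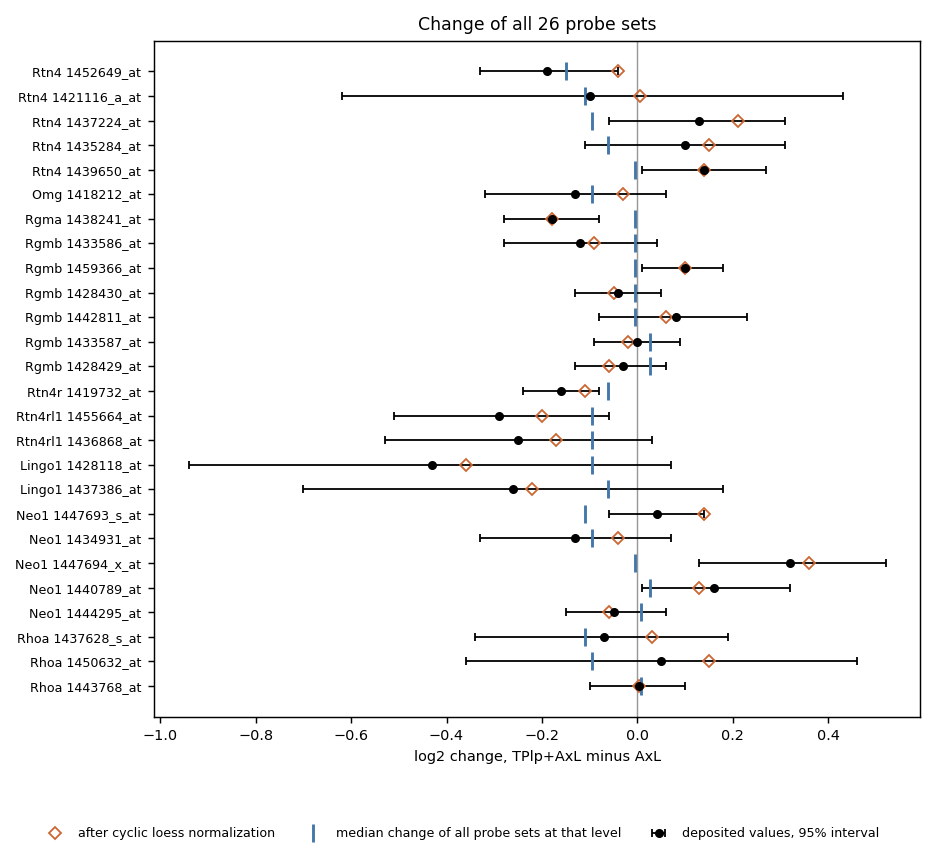
Log2 change (TPlp+AxL minus AxL, horizontal axis) of the 26 probe sets with the 95% interval from limma, the change after cyclic loess normalization as open diamonds, and the median change of all probe sets of the same mean level as vertical ticks. The intervals of 4 probe sets lie below 0 (Rgma, Rtn4r and the brightest of Rtn4 and Rtn4rl1) and those of 4 lie above 0 (1 of Rgmb, 1 of Rtn4 and 2 of Neo1), and none of the 8 passed the adjusted threshold.

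Signal level moved with the groups across the whole table. The median change was 0.03 at mean levels of 7 to 8, -0.06 at 9 to 10, -0.11 at 11 to 12 and -0.13 at 12 to 13. Read against the median of their own level, 15 of the 26 probe sets were more negative. After cyclic loess normalization those level medians lay between -0.0086 and 0.00075, and the median of the 9 brightest probe sets moved from -0.16 to -0.092. Over the brightest probe sets of all genes the median was -0.028 with the deposited values. The part of this level shift in the changes of bright probe sets such as those of Rtn4 and Omg was not tested beyond these alternatives.

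**Figure D4:**
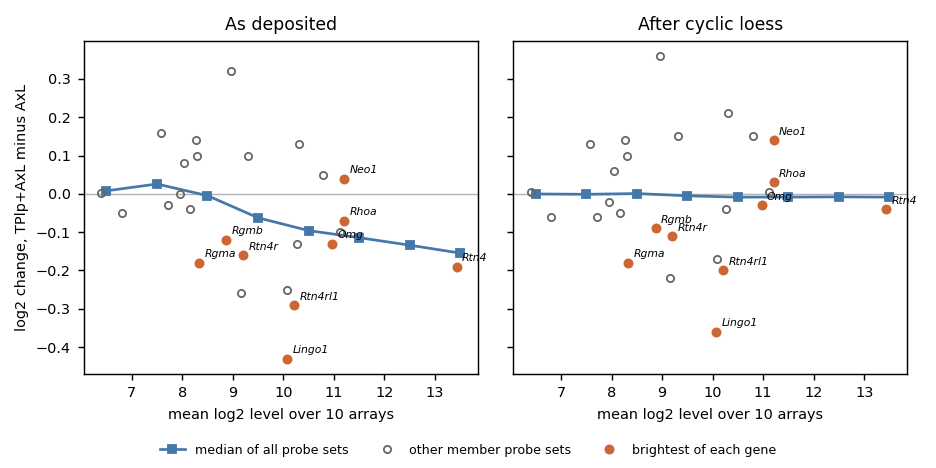
Log2 change (vertical axis) against mean log2 level over the 10 arrays (horizontal axis) for the 26 probe sets, with the median of all probe sets in each level bin as squares, for the deposited values and after cyclic loess normalization. The squares fall to -0.15 at the highest levels on the left and lie near 0 on the right, where Rtn4 and Omg are at -0.04 and -0.03.

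The other genes of these systems were taken as 3 lists, each gene by its brightest probe set. By that measure 0.28% of all genes were lower and 0.978% higher past the threshold. The first held 15 measured relatives, ligands and receptors of the Nogo system, with the myelin genes Mbp and Mog. Of these, 1 was lower and 0 higher past the threshold in limma, with a median of -0.17. Mbp, Mog and Mag were also among the oligodendrocyte markers. At an unadjusted p under 0.05, 6 of 15 were lower and 1 higher, against 12.1% and 5.76% of all genes. After cyclic loess normalization 3 were lower and 1 higher, against 6.99% and 6.98% of all genes. None then passed the adjusted threshold, and the median was -0.07. The gene past the threshold with the deposited values was Rtn1, a reticulon of neurons with the same membrane domain as Nogo. Rtn1 lay between 13.57 and 13.74 in the AxL arrays, with a mean of 13.65 ± 0.07 (SD, n = 5). It lay between 13.33 and 13.45 in TPlp+AxL, with a mean of 13.40 ± 0.05 (SD, n = 5), so the groups did not overlap. It fell by 0.26 on the log2 scale (SE 0.04, limma adjusted p = 0.0161), but by 0.09 with an adjusted p of 0.374 after quantile and 0.11 with an adjusted p of 0.287 after cyclic loess normalization. Mag, a myelin glycoprotein that also binds the Nogo receptor, had a change of -0.26 (limma adjusted p = 0.196). Rtn4rl2, the NgR2 relative of the Nogo receptor, had a change of -0.31 (limma adjusted p = 0.422) with groups that only just did not overlap. Its values ran from 9.72 to 10.78 in AxL (SD 0.45) and from 9.62 to 9.71 in TPlp+AxL (SD 0.05). Lingo3 had a change of -0.40 (limma adjusted p = 0.184), also with groups apart, and -0.36 after cyclic loess normalization. S1pr2 went the other way, at 0.16 (limma adjusted p = 0.22), and 0.22 after cyclic loess normalization. Of the 15 changes in this list 12 were negative and 3 positive. Rtn1 kept its call without any one of 7 arrays and lost it without AxL 5, TPlp+AxL 4 or TPlp+AxL 5.

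In the branch of RGM, neogenin and BMP signalling, 0 of 33 genes passed in limma, with 9 lower and 1 higher at an unadjusted p under 0.05 and a median of -0.08. At that p 12.1% of all genes were lower and 5.76% higher. After cyclic loess normalization 4 of 33 were lower and 1 higher, against 6.99% and 6.98% of all genes, with a median of -0.05. With the deposited values the 2 smallest p-values belonged to the netrin receptors Unc5a (-0.23, limma adjusted p = 0.155) and Unc5b (-0.13, limma adjusted p = 0.197), and a second Unc5b probe set had a change of -0.004. Id2, a BMP target that inhibits differentiation, had a change of 0.18 (limma adjusted p = 0.221) and passed after quantile (0.31, limma adjusted p = 0.0420) and cyclic loess normalization (0.30, limma adjusted p = 0.0422), where 1.13% and 1.15% of all genes were higher past the threshold. Bmp6, Id1, Id3 and Id4 had changes of -0.23, -0.27, -0.29 and -0.23, and their smallest limma adjusted p was 0.200.

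Among 43 genes of small GTPase signalling, its kinases and their cytoskeletal effectors, 0 passed in limma, with 18 lower and 0 higher at an unadjusted p under 0.05 and a median of -0.11. Over all genes 12.1% were lower and 5.76% higher at that unadjusted threshold. After cyclic loess normalization the count was 5 lower and 3 higher of 43, against 6.99% lower and 6.98% higher over all genes, and the median was -0.02. The smallest p-values were those of Myl12b (-0.23, limma adjusted p = 0.076), a light chain of myosin, and Rhob (-0.32, limma adjusted p = 0.116), a GTPase close to RhoA. In each, all 5 TPlp+AxL arrays lay below the AxL arrays. With cyclic loess Myl12b was at -0.09 (limma adjusted p = 0.459) and Rhob at -0.21 (limma adjusted p = 0.247). A second, dimmer Myl12b probe set had a change of -0.02 (limma adjusted p = 0.866). Rock1, the kinase related to Rock2, had a change of 0.07 (limma adjusted p = 0.690).

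**Figure D5:**
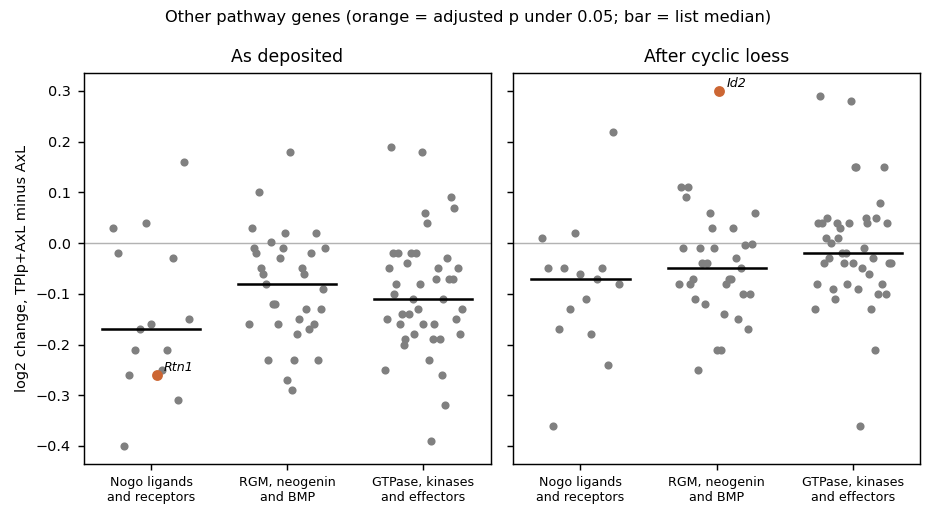
Log2 change (vertical axis) of other genes of the pathway in 3 lists of 15, 33 and 43 genes, each gene by its brightest probe set, with the list median as a bar and genes past the adjusted threshold in orange, for the deposited values and after cyclic loess normalization. Rtn1 is the gene past the threshold on the left and Id2 on the right, and the list medians of -0.17, -0.08 and -0.11 move to -0.07, -0.05 and -0.02.

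Cell type markers were read in the same arrays. Of all genes, 0.978% were higher past the threshold. T cell markers had a mean log2 value of 7.52 to 7.59 in AxL and 7.97 to 8.35 in TPlp+AxL, with 4 of 8 genes higher past it. Markers of monocytes and neutrophils had means of 8.80 to 9.36 and 10.09 to 10.44, with 5 of 6 genes higher. The part of T cells, monocytes and neutrophils in the values of the Nogo and RGM genes was not tested. Hippocampal markers had means of 10.66 to 10.87 in AxL and 10.62 to 10.77 in TPlp+AxL, with 0 of 8 past the threshold in limma and 1 at an unadjusted p under 0.05. Choroid plexus markers were high in AxL 3 (10.94), AxL 5 (9.97) and TPlp+AxL 1 (9.99) and between 8.44 and 8.63 in the other arrays. Without those 3 arrays 0 of the 26 probe sets passed in limma, and 0.00222% of all probe sets did.

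Rtn4r was used to look for genes with a like pattern from mouse to mouse. Among 9089 other genes at or above the median level, the 5 whose deviations from the group means followed those of Rtn4r most closely over the 10 arrays were Cacna1g (Pearson r 0.92, Spearman coefficient 0.81), Sgsm1 (0.91 and 0.90), Kirrel3 (0.88 and 0.81), Tsr1 (0.87 and 0.83) and Wdr5 (0.87 and 0.76). Without AxL 4 and AxL 3, the arrays farthest from the middle for Rtn4r, r was 0.89, 0.82, 0.69, 0.70 and 0.68. These are the highest of many values and carry no test. None of the 5 passed in the group comparison, with limma adjusted p from 0.405 to 0.818.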

How the data were processed

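Hippocampal RNA of 10 mice was hybridised as biotinylated cRNA to Affymetrix arrays. The authors deposited log2 values of 45101 probe sets. RMA is named in the submitters' processing notes. Software versions were not given in the sources used here. Then 64 control probe sets were set aside. Symbols came from the platform annotation, updated through Entrez identifiers with GRCm38.p6 gene names for 34741 of 34945 probe sets with 1 symbol; 932 had several and 9160 none. The 2 groups were tested with limma 3.58.1 (lmFit, eBayes; R 4.3.3) on all 45037 probe sets, without a filter or further normalization, and adjusted by Benjamini-Hochberg. The fit was tested on simulated data. The number of arrays limits the precision. Two-sided exact permutation tests enumerated every relabelling in Python 3.11.15.

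All member genes were named, with values in every array for the brightest probe set of each and for those with separate groups or past the threshold; other pathway genes were named if past the threshold, or else the 2 with the smallest p of a list. Others named (Mag, Rtn4rl2, Lingo3, S1pr2, Id1, Id2, Id3, Id4, Bmp6, Rock1, Cit, Rnd1, and the Neo1, Rtn4, Rtn4rl1, Lingo1 and Rgmb second probe sets) were chosen after their values were seen. The members and lists were chosen with earlier results of these data known. Some listed genes are not reported here. Alternatives were a trended and robust variance, a filter on dim probe sets, 3 scalings, array weights, leaving out probe sets of shared sequence, a replicate block, each array left out, the mean of a gene's probe sets, an adjusted p under 0.10 and, added after seeing the data, leaving out the 3 arrays with high choroid plexus markers.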

Additional observations from a re-analysis of the deposited data

Results flagged for a closer look

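Each group of 5 arrays was checked for 1 array far from the rest, by the share of the group's range that lies between that array and its nearest neighbour. A share above 0.71 was found 6 times in 62 groups, 52 of them of the Nogo and RGM genes, and chance gives about 1 in 20. AxL 4 was high for both Lingo1 probe sets, at 11.33 in 1428118_at (next highest 10.18) and 10.22 in 1437386_at (next highest 9.13). It was also high for the Rtn4rl1 probe set 1436868_at, at 10.78 (next highest 10.20). TPlp+AxL 1 was high for the brightest Rtn4 probe set, at 13.60 (next highest 13.33). TPlp+AxL 2 was low for the brightest Rtn4rl1 probe set, at 9.99 (next lowest 10.07). TPlp+AxL 5 was high for Unc5a, at 9.61 (next highest 9.43). The values without AxL 4 and TPlp+AxL 1 are given with Lingo1, Rtn4rl1 and Rtn4 above.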

How the results depend on the processing

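Of 488 alternative values of single probe sets of the Nogo and RGM genes, 459 kept their direction and side of the threshold, 4 passed it and 25 turned sign. The count past the threshold, 0 of 26, became 1 (Rtn4r) after each array's median was subtracted, where 479 of all probe sets passed, 2 (Rtn4r and the Neo1 probe set 1447694_x_at) with array weights, where 753 of all passed, and 1 (Rtn4r) at an adjusted p under 0.10. It lay between 0 and 1 when 1 array was left out. The count of other pathway genes, 1 of 91, was 0 with a trended and robust variance, 0 without the 3 arrays with high choroid plexus markers, 3 with array weights (Rtn1, Rhob and Myl12b), 2 at an adjusted p under 0.10 and 3 with the mean of a gene's probe sets (Rtn1, Id4 and Cfl1). It lay between 0 and 3 when 1 array was left out. The cause of these moves was not tested. The median change of -0.042 lay between -0.065 and -0.008 when 1 array was left out.

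The 7 probe sets that turned sign had changes of at most 0.1 in size. Rhoa 1443768_at was -0.02 after median subtraction and -0.0071 with array weights, Rhoa 1450632_at -0.03 with array weights, and Rhoa 1437628_s_at 0.03 after quantile and after loess normalization. Rtn4 1421116_a_at was 0.0047 after loess normalization. Without the 3 arrays, Rgmb 1442811_at was -0.02, Neo1 1444295_at 0.005 and Rhoa 1450632_at -0.06. When 1 array was left out, Rgmb 1433587_at ran from -0.03 to 0.02, Rtn4 1421116_a_at from -0.27 to 0.04, Rhoa 1437628_s_at from -0.15 to 0.03, Rhoa 1450632_at from -0.07 to 0.16 and Rhoa 1443768_at from -0.03 to 0.03.

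The replicate numbers did not pair the arrays: same-numbered arrays correlated between -0.22 and 0.36 in their deviations. With the replicate number as a block, 0 of the 26 and 0 of the 91 passed, and 241 of all probe sets against 376 without it. Without the 3 arrays 1 of all probe sets passed. The number of arrays and the signal above background limit what small or dim changes could be seen.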
